A study of Drosophila melanogaster with 8 samples.

Results

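The respiratory chain of the inner mitochondrial membrane was followed in wing imaginal discs of Drosophila melanogaster, the larval epithelia from which the adult wing and thorax form. Members were the rows of the deposited normalized counts whose FlyBase symbol begins with ND-, Sdh, UQCR, COX or ATPsyn. This gave 88 of 18354 gene rows. They comprised 63 subunits, of which 34 belonged to complex I, 4 to complex II, 6 to complex III, 8 to complex IV and 11 to complex V. A further 24 were paralogs named for a subunit with an added L (like), a class known for expression in the testis, and 1, Sdhaf3, is an assembly factor of complex II. The tested discs carried nub-Gal4, UAS-mRFP and UAS-ecd-RNAi, and control discs carried nub-Gal4 and UAS-mRFP, so the driver and the red fluorescent protein were common to both genotypes. Each genotype had 4 libraries, named by the labels as biological replicates, each from a pool of 150 discs. Third-instar larvae were kept at 25 °C and dissected on day 7 after egg laying, and 2 µg of total RNA entered a stranded library kit with rRNA removal. The driver nub-Gal4 is active in the pouch and hinge of the disc, so cells of the notum in the same discs did not express the RNAi construct.

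The respiratory chain passes electrons from NADH, through complex I, and from succinate, through complex II, to ubiquinone, then through complex III and cytochrome c to complex IV, which reduces oxygen. Complexes I, III and IV pump protons, and complex V, the ATP synthase, uses the resulting gradient to make ATP. Complex II is encoded wholly in the nucleus, whereas the other complexes join nuclear subunits to proteins of the mitochondrial genome. Growing discs are known to use glycolysis beside respiration.

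The deposited totals lay between 27403922 and 32623572 normalized counts in the ecd-RNAi-labelled libraries and between 35110994 and 37879705 in control libraries. The gene ecd, which encodes a protein needed for pre-mRNA splicing, was measured first as a check on the labels. ecd measured 1416, 1208, 1307 and 1462 normalized counts in the ecd-RNAi-labelled libraries, against 1052, 1015, 1047 and 998 in control libraries. It was thus higher in the libraries labelled ecd-RNAi (log2 fold change 0.39 ± 0.059 (SE), limma adjusted p = 0.000245), which goes against the label. Reads from the hairpin transcript were not separated from those of the gene, and 35 bases of its exons are shared with the antisense gene CG13807. Annotated rRNA made up 29.4% ± 3.91 of the ecd-RNAi-labelled libraries and 50.97% ± 2.08 of control libraries (SD, n = 4 each). The wing disc genes nub and vg were expressed in all 8 libraries. The means were 10576 in ecd-RNAi-labelled and 11475 in control libraries for nub and 2825 in ecd-RNAi-labelled and 3817 in control libraries for vg. The summed 88 members took 0.580% ± 0.0149 of the protein-coding signal in the ecd-RNAi-labelled libraries and 0.728% ± 0.0239 in control libraries. In bulk discs, fewer cells of one type and less RNA per cell cannot be told apart.

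Subunits of all 5 complexes were lower in the ecd-RNAi-labelled libraries, with the largest median falls in complexes IV, III and V, an order that a correction for length changed to IV, V, II, III and I. Of the 62 subunits that passed the filter of a mean of 10 normalized counts, 49 fell and none rose at a limma adjusted p under 0.05, whereas 31.7% of the 9380 gene rows tested were lower and 30.8% were higher. Another 13 were not called, among them catalytic subunits of complexes I and II. The median log2 fold change of the 62 was -0.30, with a range of -0.83 to 0.15, against 0.0014 over all rows tested. In 45 of the 62, all 4 ecd-RNAi-labelled libraries lay below all 4 control libraries, as they did in 29.2% of all rows tested. Of the 20 subunits listed as core, 15 fell, and of the other 42 that were tested, 34 fell. The list was meant for subunits that carry electrons, catalyse a reaction or form the core of a complex. It also held COX4, COX5A and COX5B, which surround the core of complex IV, and ATPsynO, which links parts of complex V. No test of a difference between complexes was made.

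**Figure D1:**
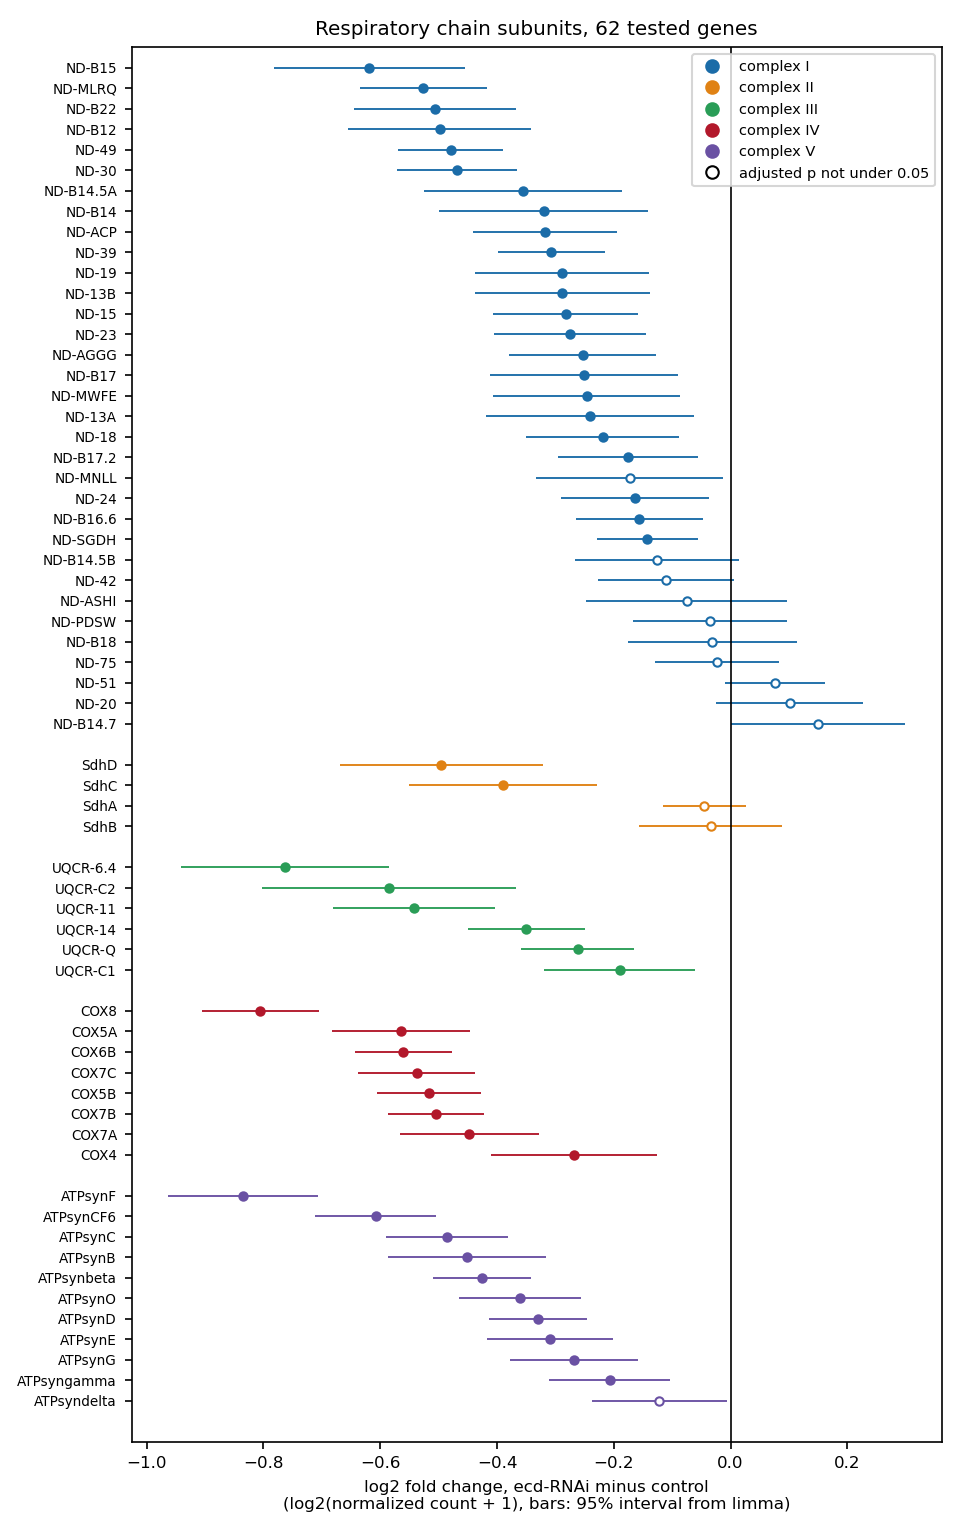
The log2 fold change (ecd-RNAi-labelled minus control libraries, on the log2(normalized count + 1) scale, n = 4 each) is plotted for each of the 62 subunits tested, by complex, with the 95% interval from limma. Filled points passed an adjusted p of 0.05 and open points did not; all 49 filled points lie left of 0, and the open points are mostly in complex I.

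Complex I takes electrons from NADH in its matrix arm and hands them to ubiquinone. Of its 33 subunits tested among the members, 23 fell and none rose, against 31.7% lower and 30.8% higher over all rows tested. Their median log2 fold change was -0.25. Accessory subunits stood at the low end: ND-B15 (-0.62), ND-MLRQ (-0.53), ND-B22 (-0.51) and ND-B12 (-0.50) had the lowest log2 fold changes, an order that changed with the correction for length. ND-B15, ND-B22 and ND-B12 are small accessory subunits of the membrane arm, and the mammalian counterpart of ND-MLRQ is now placed in complex IV. ND-B15 measured 386, 322, 322 and 345 normalized counts in the ecd-RNAi-labelled libraries, against 539, 489, 560.3 and 524 in control libraries. Its groups did not overlap, and its mean was 1.53-fold lower (log2 fold change -0.62 ± 0.073 (SE), limma adjusted p = 3.95e-05). ND-MLRQ measured 1322, 1415, 1346 and 1300.1 normalized counts in the ecd-RNAi-labelled libraries, against 2074, 1880.4, 1816 and 1989.8 in control libraries, with no overlap between the groups (log2 fold change -0.53 ± 0.049 (SE), limma adjusted p = 6.32e-06).

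The 7 core subunits of complex I did not move alike. ND-49 and ND-30 sit in the part of the matrix arm that delivers electrons to ubiquinone. ND-49 measured 1417, 1509, 1458 and 1429 normalized counts in the ecd-RNAi-labelled libraries, against 2042, 1973, 1951 and 2141 in control libraries. Every ecd-RNAi-labelled library lay far below every control library (log2 fold change -0.48 ± 0.04 (SE), limma adjusted p = 3.25e-06). ND-30 measured 634, 618, 607 and 601 normalized counts in the ecd-RNAi-labelled libraries, against 897, 812, 867 and 831 in control libraries, again without overlap (log2 fold change -0.47 ± 0.046 (SE), limma adjusted p = 1.02e-05). ND-23 carries iron-sulfur clusters in the same part of the arm. It measured 635, 573, 579.7 and 661 in the ecd-RNAi-labelled libraries, against 741, 749, 768 and 701 in control libraries, and fell as well (log2 fold change -0.27 ± 0.058 (SE), limma adjusted p = 0.00218).

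The subunits that receive electrons from NADH gave other values. ND-51 binds the flavin that accepts them. ND-51 measured 1697, 1834, 1732 and 1743 normalized counts in the ecd-RNAi-labelled libraries, against 1649, 1600.3, 1672 and 1722 in control libraries. Its groups overlapped (log2 fold change 0.076 ± 0.038 (SE), limma adjusted p = 0.107), with an interval of -0.009 to 0.16 on the log2 scale; it passed as higher after quantile normalization (0.16, adjusted p = 0.00442) and after scaling to the protein-coding total (0.11, adjusted p = 0.0271), and stood at -0.015 after recentring on the median gene. ND-75 measured 1972, 2029, 1866 and 1773 normalized counts in the ecd-RNAi-labelled libraries, against 1971, 1852, 1993 and 1939.9 in control libraries. This long iron-sulfur subunit at the tip of the arm overlapped between groups (log2 fold change -0.023 ± 0.047 (SE), limma adjusted p = 0.694), with an interval of -0.13 to 0.083 that leaves out a fall of the size seen for ND-49. ND-24, which holds a further cluster beside the flavin, measured 850.5, 792, 740.1 and 766 in the ecd-RNAi-labelled libraries, against 928, 852, 829.9 and 917 in control libraries. It fell by a small amount (log2 fold change -0.16 ± 0.057 (SE), limma adjusted p = 0.0292), with overlapping groups, and the call was lost when any one of ecd-RNAi replicates 3 and 4 and control replicates 1 and 4 was left out (adjusted p = 0.0668 to 0.0822).

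ND-20 carries the last iron-sulfur cluster before ubiquinone. ND-20 measured 1530.5, 1409.7, 1395 and 1375 normalized counts in the ecd-RNAi-labelled libraries, against 1429, 1213, 1368 and 1319.5 in control libraries. It was not called (log2 fold change 0.10 ± 0.056 (SE), limma adjusted p = 0.143; interval -0.024 to 0.23), in contrast to its neighbours ND-49 and ND-30, although the difference between these genes was not tested. ND-B14.7, an accessory subunit of the membrane arm, had the highest log2 fold change of all 62 subunits. ND-B14.7 measured 759, 714, 683 and 645 normalized counts in the ecd-RNAi-labelled libraries, against 615, 619, 592 and 698 in control libraries. Control replicate 4 lay above ecd-RNAi replicates 3 and 4 (log2 fold change 0.15 ± 0.067 (SE), limma adjusted p = 0.0755). Without ecd-RNAi replicate 4 or control replicate 4 it passed as higher (log2 fold change 0.19 and adjusted p = 0.0376 without the ecd-RNAi library, 0.20 and 0.0225 without the control library). ND-B8 was the only subunit below the filter, with 8.68, 4.94, 4.996 and 5.20 in the ecd-RNAi-labelled libraries, against 3.06, 4.75, 3.55 and 2.25 in control libraries.

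Complex II, succinate dehydrogenase, is also an enzyme of the tricarboxylic acid cycle, and is built of a catalytic pair in the matrix and a pair that anchors it in the membrane. The anchors fell, and the catalytic pair did not pass the test. The flavoprotein SdhA oxidises succinate. SdhA measured 2768, 2838, 2765 and 2825 normalized counts in the ecd-RNAi-labelled libraries, against 2832, 2809.7, 2971 and 2941 in control libraries. Its groups overlapped (log2 fold change -0.045 ± 0.032 (SE), limma adjusted p = 0.241; interval -0.12 to 0.026), and its call turned on the scaling, as higher after quantile normalization (0.092, adjusted p = 0.0308) and lower after recentring on the median gene (-0.14, adjusted p = 0.00503). SdhB carries the iron-sulfur clusters. SdhB measured 898, 799, 782 and 787 normalized counts in the ecd-RNAi-labelled libraries, against 813, 834, 812 and 883 in control libraries. It was called in no setting tried (log2 fold change -0.034 ± 0.055 (SE), limma adjusted p = 0.613; interval -0.16 to 0.089), and shares 129 bases of exon with the antisense gene CG15237.

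The anchor subunits SdhC and SdhD hold the ubiquinone site together with SdhB. SdhC measured 644, 671, 649 and 673 normalized counts in the ecd-RNAi-labelled libraries, against 960.2, 744, 859 and 906 in control libraries. The lowest control value exceeded the highest ecd-RNAi-labelled value (log2 fold change -0.39 ± 0.072 (SE), limma adjusted p = 0.000904). SdhD measured 458, 442, 392 and 375 normalized counts in the ecd-RNAi-labelled libraries, against 583, 579, 544 and 641 in control libraries, also without overlap (log2 fold change -0.50 ± 0.078 (SE), limma adjusted p = 0.0003). Like SdhB, SdhD shares exon bases with an antisense gene (124 bases with PTPMT1). Within a library the ratio of the summed anchors to the summed catalytic pair does not depend on a single scaling factor per library. It was 0.301, 0.306, 0.294 and 0.290 in the ecd-RNAi-labelled libraries, against 0.424, 0.363, 0.371 and 0.405 in control libraries, so that the groups did not overlap. That ratio was chosen after the values were seen and was not tested.

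Complex III moves electrons from ubiquinol to cytochrome c. All 6 of its subunits among the members fell, against 31.7% of all rows tested, with a median log2 fold change of -0.45. UQCR-C1 and UQCR-C2 form its core on the matrix side. UQCR-C2 measured 1493, 1533, 1192 and 1113 normalized counts in the ecd-RNAi-labelled libraries, against 2018, 1871, 2068 and 1972 in control libraries. In the ecd-RNAi-labelled group, replicates 3 and 4 were lower than replicates 1 and 2, and all 4 were below the controls (log2 fold change -0.59 ± 0.10 (SE), limma adjusted p = 0.000446). UQCR-C1 measured 2893, 2974, 2659 and 2487 normalized counts in the ecd-RNAi-labelled libraries, against 3166, 2957, 3145 and 3270.1 in control libraries. The same pair of replicates was lowest, ecd-RNAi replicate 2 reached into the control range, and the fall was small (log2 fold change -0.19 ± 0.058 (SE), limma adjusted p = 0.016). It was not called after quantile normalization (-0.055, adjusted p = 0.368).

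The small accessory subunits of complex III fell too, over a wider range. UQCR-6.4 measured 353, 327, 292 and 361 normalized counts in the ecd-RNAi-labelled libraries, against 578, 524, 547 and 612 in control libraries. It was 1.70-fold lower, and of the 62 subunits only ATPsynF and COX8 had lower log2 fold changes (log2 fold change -0.76 ± 0.08 (SE), limma adjusted p = 1.58e-05), and 227 bases of its exons are covered by the antisense gene POSH. UQCR-11 averaged 1090.2 ± 46.2 in the ecd-RNAi-labelled libraries and 1592 ± 139 in control libraries (SD, n = 4 each; log2 fold change -0.54). UQCR-14 (-0.35) and UQCR-Q (-0.26) fell less. The whole transcript of UQCR-14 lies under the antisense gene CG32576, so that its reads are uncertain.

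Complex IV, cytochrome c oxidase, is the oxygen-consuming step. All 8 of its subunits among the members fell, in all 8 without overlap between the groups. Over all rows tested, 31.7% were lower, and in 29.2% all ecd-RNAi-labelled libraries lay below all controls. The median of complex IV, -0.53, was the lowest of the 5 complexes. COX4, COX5A and COX5B surround the catalytic core, which the mitochondrial genome encodes. COX5A measured 1478, 1420.1, 1264 and 1367 normalized counts in the ecd-RNAi-labelled libraries, against 2070.4, 1926, 2035 and 2138 in control libraries. Its mean fell by 32.3% (log2 fold change -0.56 ± 0.053 (SE), limma adjusted p = 7.39e-06). COX5B measured 1020.2, 999, 982 and 1084 normalized counts in the ecd-RNAi-labelled libraries, against 1444, 1466, 1464 and 1468 in control libraries. The control libraries differed by little from one another (log2 fold change -0.52 ± 0.04 (SE), limma adjusted p = 1.69e-06). COX4 measured 2091, 2129, 1857 and 1812 normalized counts in the ecd-RNAi-labelled libraries, against 2469, 2199.6, 2309.9 and 2513 in control libraries, the smallest fall of the complex (log2 fold change -0.27 ± 0.064 (SE), limma adjusted p = 0.00417).

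COX8, COX6B and COX7C are small subunits of complex IV that hold no redox centre. COX8 measured 752, 725, 675 and 739 normalized counts in the ecd-RNAi-labelled libraries, against 1280.0, 1232, 1238 and 1303 in control libraries. Its mean was 1.75-fold lower and its standard error small (log2 fold change -0.81 ± 0.045 (SE), limma adjusted p = 1.97e-07). COX6B averaged 1934 ± 45.0 in the ecd-RNAi-labelled libraries and 2855 ± 109.7 in control libraries (SD, n = 4 each), with a log2 fold change of -0.56. COX7C (-0.54) and COX7B (-0.51) lay close to it, but with the correction for length COX7B stood at -0.026 and was not called (adjusted p = 0.596), which leaves 7 of the 8 lower. COX8 (FBgn0263911) lies at chromosome 3L, 21538859 to 21539447, on the minus strand of the BDGP6 annotation, and shares no exon with another gene.

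Complex V makes ATP at its F1 head, which is turned by a rotor in the membrane. Of its 11 subunits among the members, 10 fell, all 10 without overlap, and the median was -0.36. Over all rows tested, 31.7% were lower, and 29.2% were lower without overlap. ATPsynbeta holds the catalytic sites. ATPsynbeta measured 12387, 12590.0, 12231 and 12978 normalized counts in the ecd-RNAi-labelled libraries, against 16568, 16478, 16593 and 17816 in control libraries. Its mean fell by 25.6% (log2 fold change -0.43 ± 0.038 (SE), limma adjusted p = 4.69e-06). ATPsynC forms the proton-driven rotor ring. ATPsynC measured 13100.1, 12617, 13015 and 14101 normalized counts in the ecd-RNAi-labelled libraries, against 19574, 17788, 17813 and 18825 in control libraries. Its mean fell by 28.6%, also without overlap (log2 fold change -0.49 ± 0.047 (SE), limma adjusted p = 8.48e-06).

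Stalk subunits of the ATP synthase differed among themselves. ATPsyngamma, the shaft that turns inside the head, averaged 2993 ± 169 in the ecd-RNAi-labelled libraries and 3454 ± 132 in control libraries (log2 fold change -0.21 ± 0.046 (SE), limma adjusted p = 0.00286). ATPsynO links the head to the peripheral stalk and averaged 2038 ± 107.7 in the ecd-RNAi-labelled libraries and 2617 ± 109.4 in control libraries (log2 fold change -0.36 ± 0.047 (SE), limma adjusted p = 7.78e-05). The call for ATPsyngamma was lost after quantile normalization (-0.065, adjusted p = 0.305). ATPsyndelta, at the foot of the shaft, was the only one of the 11 not called. ATPsyndelta measured 1500.4, 1489, 1465 and 1572 normalized counts in the ecd-RNAi-labelled libraries, against 1791, 1555, 1544 and 1680.0 in control libraries. Control replicates 2 and 3 fell within the range of the ecd-RNAi-labelled libraries (log2 fold change -0.12 ± 0.052 (SE), limma adjusted p = 0.0629). It passed as lower without control replicate 2 (-0.15, adjusted p = 0.0428), without control replicate 3 (-0.15, adjusted p = 0.0383) and after recentring on the median gene (-0.21, adjusted p = 0.00304).

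ATPsynF, a subunit of the membrane part, had the lowest log2 fold change of all 62 subunits. ATPsynF measured 1561, 1521, 1377 and 1318 normalized counts in the ecd-RNAi-labelled libraries, against 2714, 2486, 2507 and 2579 in control libraries. Its highest ecd-RNAi-labelled value was far below its lowest control value, and its mean was 1.78-fold lower (log2 fold change -0.83 ± 0.057 (SE), limma adjusted p = 7.77e-07). ATPsynF (FBgn0035032) lies at chromosome 2R, 24599088 to 24599821 on the minus strand of BDGP6, with 4 bases of exon shared with the antisense gene CG13587. ATPsynCF6 and ATPsynB belong to the peripheral stalk, and had log2 fold changes of -0.61 and -0.45.

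The shift was present in each ecd-RNAi-labelled library and differed in size among them. For each subunit the value in a library was set against the mean of the control libraries, and the median over the subunits of a complex was taken. In complex IV these medians were 71.1%, 69.7%, 66.4% and 71.2% in the ecd-RNAi-labelled libraries, against 102%, 97.9%, 97.7% and 103% in control libraries. In complex I they were 87.0%, 85.0%, 79.9% and 88.7% in the ecd-RNAi-labelled libraries, against 103%, 95.4%, 98.4% and 101% in control libraries. In every complex the groups were separate, and replicate 3 was the lowest of the ecd-RNAi-labelled libraries. The summed normalized counts of the ecd-RNAi-labelled libraries, as a share of the control mean, were 86.1% for complex I, 90.6% for complex II, 76.6% for complex III, 70.6% for complex IV and 74.4% for complex V.

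**Figure D2:**
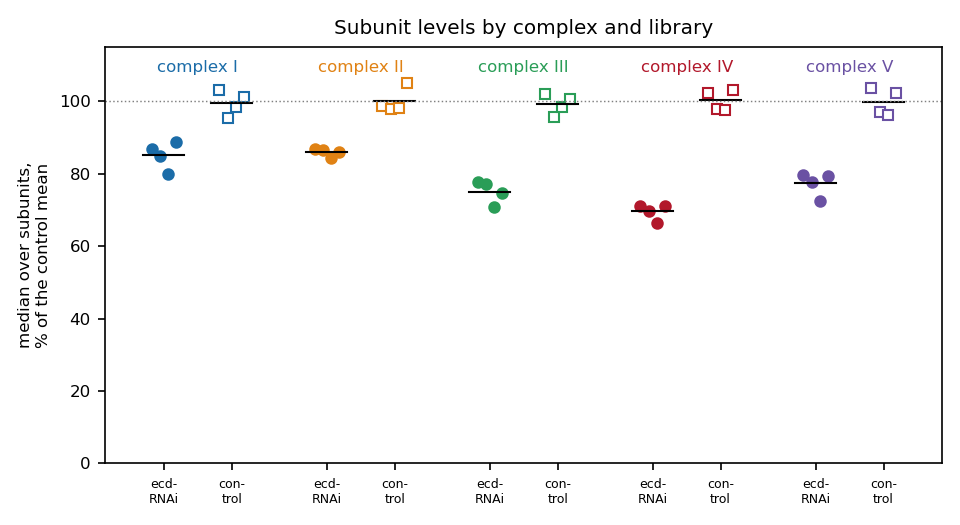
Each point is a library; its height is the median, over the subunits of a complex, of the library's value as a percentage of the control mean, and the line marks the mean of 4 libraries. All filled points (ecd-RNAi-labelled) lie below all open points (control) in each complex, at 66.4% to 71.2% in complex IV and 79.9% to 88.7% in complex I.

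Levels were compared between genes as normalized counts per kb of the canonical transcript. ATPsynC was highest, with 7362 normalized counts per kb in the ecd-RNAi-labelled libraries and 10312 in control libraries, and ATPsynbeta second, with 6193 normalized counts per kb in the ecd-RNAi-labelled libraries and 8324 in control libraries. They led in both genotypes. In the ecd-RNAi-labelled libraries the median per complex was 2268 for complex V, 1832 for complex IV, 1134 for complex III, 745 for complex I and 699 for complex II. In control libraries it was 2880 for complex V, 2630 for complex IV, 1530 for complex III, 879 for complex I and 821 for complex II, in the same order of complexes. ND-B8, at 12.9 normalized counts per kb in the ecd-RNAi-labelled libraries and 7.40 in control libraries, was by far the lowest subunit.

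Most of these transcripts are short, and length moved with the result. The canonical transcripts of the 62 subunits had a median of 804.5 bases, against 2071 bases for all 8635 coding genes tested. Across the 62 subunits the log2 fold change correlated with log2 length (Pearson r 0.45 and Spearman rho 0.47), a description across genes that share libraries, whereas rho was -0.056 over all coding genes. All coding genes of up to 600 bases had a median log2 fold change of -0.44, and 55.6% of them were lower. The 11 subunits in that class had a median of -0.53, and all 11 fell. The shortest class as a whole was thus low.

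Between 600 and 1800 bases the subunits and all coding genes lay further apart. Between 600 and 900 bases, 23 of 27 subunits fell, with a median of -0.28, against a median of -0.046 and 33.5% lower over all coding genes. Between 900 and 1200 bases, 7 of 8 fell, with a median of -0.30, against 0.017 and 25.8% over all coding genes. Between 1200 and 1800 bases, 7 of 12 fell, with a median of -0.17, against 0.089 and 22.2% over all coding genes. Above 1800 bases they lay close again. The 3 subunits between 1800 and 3000 bases had a median of -0.045, against 0.046 over all coding genes, and of them ATPsynbeta fell while ND-75 and SdhA were not called. ATPsyndelta, the one longer subunit, stood at -0.12 without a call, against a median of -0.084 over all coding genes of that class.

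With a correction for length, chosen after the data were seen, 44 of the 62 subunits were lower and 1, ND-B14.7, was higher. The shares of all coding genes called in that fit are not given here. The 31.7% lower and 30.8% higher over all rows tested belong to the uncorrected fit. The median moved to -0.21 over all 62, to -0.16 in complex I, -0.23 in complex II, -0.22 in complex III, -0.43 in complex IV and -0.33 in complex V. COX8 (-0.81 before) then stood at -0.46, ATPsynF at -0.58 and UQCR-6.4 at -0.48. The calls of 6 subunits ended, with COX7B at -0.026, UQCR-14 at -0.017, ND-13B at -0.042, ND-B14 at -0.090, ND-B17.2 at -0.016 and ND-MWFE at -0.14 (adjusted p = 0.0612 to 0.789), and ND-42 passed as lower (-0.18). Of the lowest subunits of complex I, ND-B15 moved to -0.23, ND-MLRQ to -0.21 and ND-B12 to -0.17, and ND-49 and ND-30 (-0.47) were then the lowest of that complex. The longer transcripts ND-49, UQCR-C2 and ATPsynbeta stood at -0.55, -0.65 and -0.49 after the correction. The anchors of complex II stood at -0.37 for SdhC and -0.48 for SdhD, and its catalytic pair at -0.050 for SdhA and -0.089 for SdhB. What part length has in any of the falls was not tested.

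**Figure D3:**
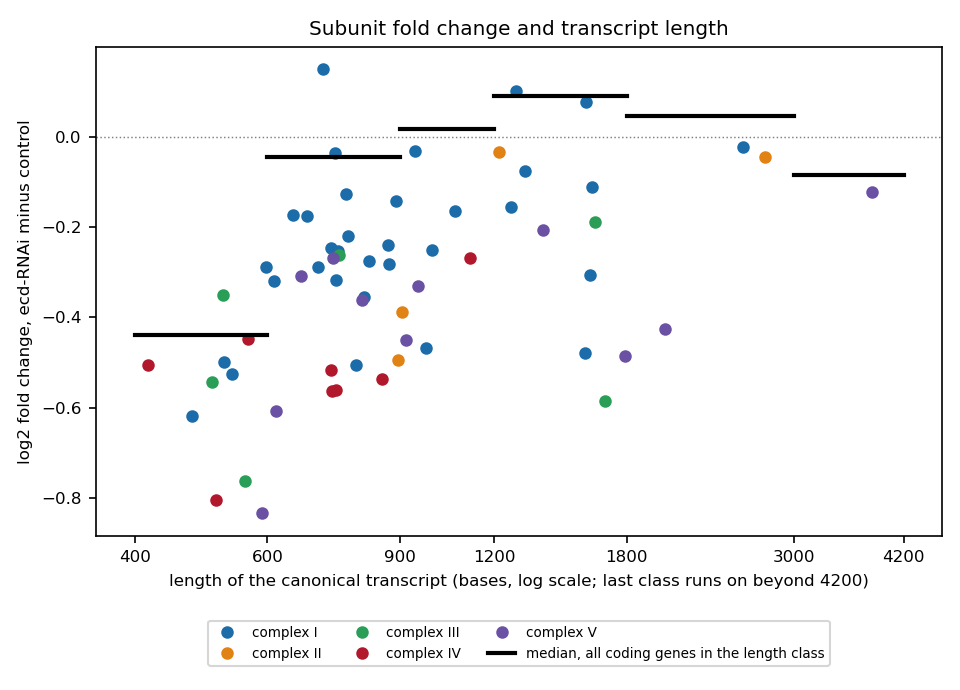
The log2 fold change (ecd-RNAi-labelled minus control libraries) of the 62 subunits is plotted against the length of the canonical transcript in bases, on a log axis, with black lines at the median of all coding genes tested in each length class. Below 600 bases the subunits (median -0.53) and all coding genes (-0.44) are both low, and between 600 and 1800 bases most subunits lie below the line.

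The series concerns the spliceosome, so introns were counted in the BDGP6 annotation. The 62 subunits had 1 to 6 introns, with a median of 2, and their number correlated weakly with the log2 fold change (Spearman rho 0.14 across genes). ND-49, with 6 introns, fell, and ND-75, with 5, was not called. By chromosome, 6 of the 12 subunits on the X fell, with a median of -0.16, against 43 of the 50 elsewhere, with a median of -0.32. Over all coding genes tested, 30.4% were lower on the X and 33.2% elsewhere, and the medians were 0.018 on the X and -0.011 elsewhere. The dosage compensation RNA roX1, which male cells express, averaged 23247 ± 3602 in the ecd-RNAi-labelled libraries and 15551 ± 2959 in control libraries (log2 fold change 0.59), and its part in the result was not tested.

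Because the use of strand in the counting is not given in the sources used here, reads of genes that overlap on either strand are uncertain. Of the 30 subunits that share no exon base with another gene, 24 fell, with a median of -0.28. Of 13 that share at least 100 bases, 10 fell. ND-MNLL, which lies within the exons of CG45089 on the same strand, was not called (log2 fold change -0.17 ± 0.072 (SE), limma adjusted p = 0.0585). It passed as lower after quantile normalization (-0.31, adjusted p = 0.00297), after recentring (-0.26, adjusted p = 0.00884), without ecd-RNAi replicate 4 (adjusted p = 0.0271) and without control replicate 3 (adjusted p = 0.0213), and stood at 0.017 with the correction for length.

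Most of the testis-type paralogs were nearly silent. Of the 24, 3 passed the filter (COX7AL, ATPsynepsilonL and COX7CL), and 4 (ND-49L, ND-51L1, ND-51L2 and UQCR-11L) were at 0 in all 8 libraries. COX7AL, a paralog of the complex IV subunit COX7A, was the only member called higher. COX7AL measured 49.5, 48.3, 35.8 and 53.6 normalized counts in the ecd-RNAi-labelled libraries, against 1.02, 2.38, 1.19 and 0 in control libraries. The groups were far apart, and all 4 ecd-RNAi-labelled libraries lay above all controls, as in 28% of all rows tested. With means of 46.8 in ecd-RNAi-labelled and 1.15 in control libraries, COX7AL passed the filter only through the ecd-RNAi-labelled group. Its call and the separation of its groups are therefore not independent of the filter. These control values are below the 3.42 normalized counts that 3 reads are worth on average in a control library. Summed over 4 libraries they amount to about 213 reads in the ecd-RNAi-labelled group and 4 in controls, a ratio of 41.2 with a 95% exact counting interval of 15.9 to 153, which covers counting error only. The fitted value (log2 fold change 4.59 ± 0.42 (SE), limma adjusted p = 6.03e-06) depends on the pseudocount of 1.

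The parent gene went the other way. COX7A measured 1373, 1356, 1292 and 1477 normalized counts in the ecd-RNAi-labelled libraries, against 1999, 1879.6, 1736 and 1884 in control libraries. Its groups were separate and it fell (log2 fold change -0.45 ± 0.053 (SE), limma adjusted p = 4.22e-05). COX7AL was worth 3.60%, 3.56%, 2.77% and 3.63% of the COX7A value in the ecd-RNAi-labelled libraries, against 0.0512%, 0.126%, 0.0683% and 0% in control libraries, so COX7A was the more abundant in every library. Both genes lie on chromosome 3R of BDGP6. COX7AL (FBgn0037579, plus strand, 8343669 to 8344310) begins 2625 bases beyond COX7A (FBgn0040529, minus strand, 8339944 to 8341043) and shares no exon base with another gene.

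DppIII and Arl2, which lie near COX7AL, did not rise with it. DppIII, which starts 89 bases after it on the same strand, averaged 4038 ± 107 in the ecd-RNAi-labelled libraries and 4718 ± 73.0 in control libraries (log2 fold change -0.22). Arl2 was not called (log2 fold change -0.066). Both were looked up after the value of COX7AL was seen.

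ATPsynepsilonL is a paralog of sun, the epsilon subunit of the ATP synthase head. ATPsynepsilonL measured 18.1, 23.6, 24.9 and 18.998 normalized counts in the ecd-RNAi-labelled libraries, against 28.0, 42.5, 32.5 and 32.4 in control libraries. The groups were separate by a small margin (log2 fold change -0.63 ± 0.21 (SE), limma adjusted p = 0.0243), and the call was lost without ecd-RNAi replicate 1, ecd-RNAi replicate 4 or control replicate 2 (adjusted p = 0.0566 to 0.0699). COX7CL measured 6.95, 8.89, 9.17 and 11.3 in the ecd-RNAi-labelled libraries, against 11.2, 14.2, 14.2 and 8.998 in control libraries, and was not called (-0.38). COX7AL2, a further paralog of COX7A, measured 0.526, 1.78, 0 and 0.513 in the ecd-RNAi-labelled libraries, against 46.2, 0, 0 and 2.05 in control libraries. A single control library, replicate 1, held nearly all of its signal.

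The other paralogs with a mean of at least 1 normalized count in a group were low. On average 3 reads are worth 2.645 normalized counts in ecd-RNAi-labelled and 3.42 in control libraries. COX4L, SdhBL and ND-20L averaged above that worth in both groups, SdhCL only in the ecd-RNAi-labelled group, and the rest below it. In the ecd-RNAi-labelled libraries COX4L averaged 8.89, SdhBL 7.58, ND-20L 4.65, COX5BL 2.58, ATPsynbetaL 2.21, COX6AL2 1.77, COX6CL 1.53, ND-24L 1.343 and SdhAL 1.32. In control libraries COX4L averaged 6.88, SdhBL 5.51, ND-20L 8.38, COX5BL 2.08, ATPsynbetaL 2.30, COX6AL2 1.77, COX6CL 0.279, ND-24L 0.297 and SdhAL 1.13. ATPsynCF6L, COX6AL and ATPsynGL had means of 2.16, 1.74 and 1.53 in the ecd-RNAi-labelled libraries and were at 0 in all control libraries. SdhCL ranged from 5.90 to 8.68 in the ecd-RNAi-labelled libraries, against 1.13 to 4.78 in control libraries, without overlap. Without the filter on low values, SdhCL, ATPsynCF6L, COX6AL and ATPsynGL passed as higher beside COX7AL. The authors' deposited table calls none of these 4, with an adjusted p of 0.13 for SdhCL and 0.119 for ATPsynCF6L and none given for COX6AL and ATPsynGL.

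**Figure D4:**
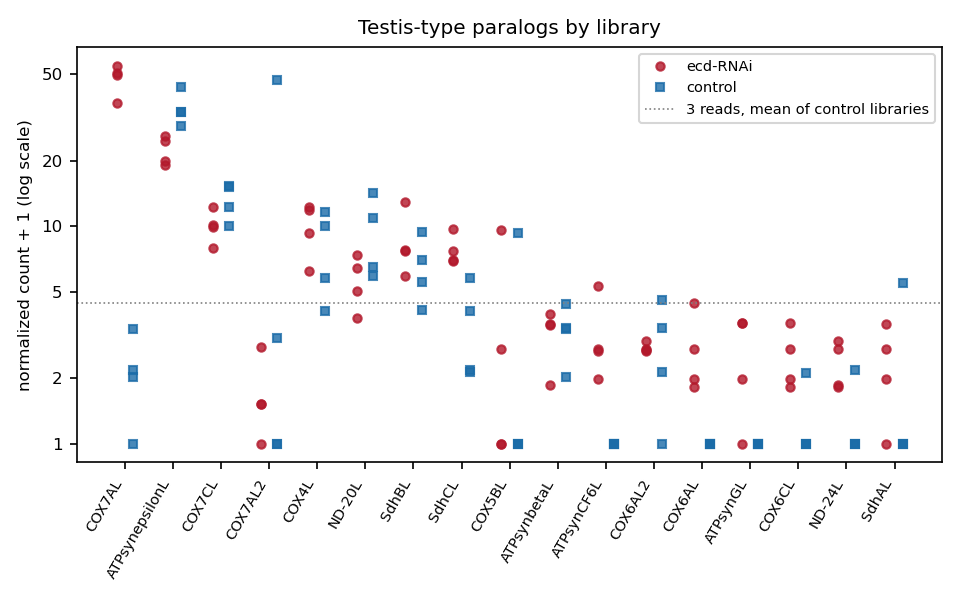
Normalized count + 1 on a log axis for the 17 testis-type paralogs with a mean of at least 1 in a group; each point is a library, ecd-RNAi-labelled to the left of control. COX7AL separates the groups widely (35.8 to 53.6 in ecd-RNAi-labelled and 0 to 2.38 in control libraries), and COX7AL2 is high in 1 control library (46.2).

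Markers of the testis were read beside COX7AL. Of 34 marker rows, 11 passed the filter. Of these, 6 (54.5%) were higher and 1, Rbp4 (-1.13, adjusted p = 0.00178), was lower, against 30.8% higher and 31.7% lower over all rows tested. The 6 included stg and achi, which control discs express as well (achi averaged 512 in ecd-RNAi-labelled and 426 in control libraries). They also included betaTub85D, at 24.8 in ecd-RNAi-labelled and 8.64 in control libraries. It passed the filter only through the ecd-RNAi-labelled group, so the count of 6 is not independent of the filter. The summed level of the list was 3899 to 4241 normalized counts in the ecd-RNAi-labelled libraries and 3415 to 3654 in control libraries, a sum carried mostly by the cell cycle gene stg, which discs express. S-Lap1 (log2 fold change 2.35) and loopin-1 (2.22), leucyl aminopeptidases of sperm, rose most, and S-Lap1 averaged 71.2 in ecd-RNAi-labelled and 14.2 in control libraries. The groups of loopin-1 overlapped, at 34.07 in ecd-RNAi replicate 2 and 34.17 in control replicate 3. Below the filter, the sperm protein gene Mst87F averaged 17.6 ± 4.64 in the ecd-RNAi-labelled libraries and 1.68 ± 1.95 in control libraries. The testis genes sa, fzo and tj were at 0 in all 8 libraries. Their part in the result was not tested.

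Subunits whose symbols the rule does not reach gave a like picture. All 9 that were tested fell, against 31.7% of all rows tested, with a median of -0.53. The core subunit of the F1 head blw, partner of ATPsynbeta, averaged 10473 ± 204 in the ecd-RNAi-labelled libraries and 13748 ± 288 in control libraries (log2 fold change -0.39). The complex III subunit ox had the lowest value, at 282 ± 34.1 in the ecd-RNAi-labelled libraries and 586 ± 24.3 in control libraries (log2 fold change -1.06). Neb-cGP followed, at 973 ± 65.7 in the ecd-RNAi-labelled libraries and 1415 ± 70.4 in control libraries (log2 fold change -0.54). The Rieske iron-sulfur protein RFeSP (-0.30) and Cyt-c1 (-0.11) of complex III, the complex IV subunits cype (-0.53) and levy (-0.53), sun (-0.53) and the mobile carrier cytochrome c, Cyt-c-p (-0.34), also fell.

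The mitochondrial genome encodes cytochrome b of complex III, the catalytic core of complex IV, the proton channel of complex V and the membrane core of complex I, beside its own rRNAs. Of 13 of its genes that passed the filter, the rRNAs mt:lrRNA and mt:srRNA among them, 10 (76.9%) fell and none rose. Their median was -0.35, and 31.7% of all rows tested were lower. The complex IV genes fell by amounts near those of their nuclear partners, with mt:CoI at -0.44, mt:CoII at -0.42 and mt:CoIII at -0.35. mt:CoI measured 61899.8, 59428, 61271 and 66588 normalized counts in the ecd-RNAi-labelled libraries, against 93852, 85256, 80581 and 78341 in control libraries. The groups did not overlap. The ATP synthase gene mt:ATPase6 (-0.35) and the complex I genes mt:ND1 (-0.34), mt:ND2 (-1.08), mt:ND3 (-0.71), mt:ND4 (-0.22) and mt:ND5 (-0.29) fell too.

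Of the mitochondrial genome, 3 transcripts were not called. They were mt:Cyt-b of complex III (-0.089, interval -0.24 to 0.059), mt:ND4L (-0.49) and the large rRNA mt:lrRNA (-0.049). The small rRNA mt:srRNA, counted among those that fell, averaged 5099 ± 829 in the ecd-RNAi-labelled libraries and 11683 ± 2456 in control libraries (log2 fold change -1.19). The library kit removed rRNA, and what that step did to the mitochondrial rRNAs was not tested. The genes mt:ND6 and mt:ATPase8 were below the filter. Neighbouring mitochondrial genes are cut from shared transcripts.

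Other mitochondrial lists did not all move with the subunits. Over all rows tested, 31.7% were lower and 30.8% higher. In the list for the tricarboxylic acid cycle, which feeds the chain, 10 of 18 genes (55.6%) fell and 1 (5.56%) rose, with a median of -0.19. The list also held genes beside the cycle, among them Mdh1, muc and Pdhb, which fell, and Pdha and Idh, which were not called. Citrate synthase, kdn, averaged 411 ± 36.9 in the ecd-RNAi-labelled libraries and 1311 ± 38.6 in control libraries (log2 fold change -1.68), and CG5214, a subunit of the 2-oxoglutarate dehydrogenase complex, fell by 0.50 on the log2 scale. Among carriers and import proteins, 8 of 17 (47.1%) fell and 2 (11.8%) rose, with a median of -0.089. The ADP/ATP carrier gene Ant2 (-0.95) and the small chaperone gene Tim9a (-0.69) had the largest changes of that list.

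Lists of mitochondrial upkeep stood higher. Their counts stand beside 30.8% higher and 31.7% lower over all rows tested. In quality control, 12 of 16 genes (75%) rose and none fell, with a median of 0.19. The matrix protease Lon averaged 2898 ± 80.6 in the ecd-RNAi-labelled libraries and 1644 ± 46.6 in control libraries (log2 fold change 0.82), and Pink1, a kinase that marks damaged mitochondria, averaged 1331 ± 40.3 in the ecd-RNAi-labelled libraries and 973 ± 39.3 in control libraries (log2 fold change 0.45). In maintenance and expression of mitochondrial DNA, 8 of 15 (53.3%) rose and 2 (13.3%) fell, with a median of 0.19. Lon, counted there too, had the highest value and clu (-0.92), which encodes an RNA-binding protein, the lowest. In the list of assembly factors, 9 of 19 (47.4%) rose and 2 (10.5%) fell, with a median of 0.032. That list is broader than its name and shares bsf with the maintenance list. Sirup, an assembly factor of complex II (0.89), and CG34132 (-0.89) changed most. One of the 9, Ccdc56, and mtTFB1 of the maintenance list have identical values in all 8 libraries, so their counts cannot be told apart.

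The assembly factor among the 88 members, Sdhaf3, was not called. Sdhaf3 measured 79.9, 81.9, 90.7 and 89.2 normalized counts in the ecd-RNAi-labelled libraries, against 117, 97.4, 104 and 95.7 in control libraries. The groups were separate, and the adjusted p lay just above the threshold (log2 fold change -0.27 ± 0.11 (SE), limma adjusted p = 0.0519). It passed as lower after quantile normalization (-0.58, adjusted p = 0.00111), after recentring (-0.37, adjusted p = 0.0143) and without control replicate 4 (-0.31, adjusted p = 0.0496), and stood at 0.13 with the correction for length. Among 10 regulators of nuclear respiratory genes, 3 (30%) rose and 3 fell, close to the shares of 30.8% higher and 31.7% lower over all rows tested. The stress factor crc, the fly counterpart of ATF4, averaged 21599.6 ± 132 in the ecd-RNAi-labelled libraries and 12992 ± 128 in control libraries (log2 fold change 0.73), and foxo averaged 1205 ± 54.0 in the ecd-RNAi-labelled libraries and 2070.0 ± 37.1 in control libraries (log2 fold change -0.78).

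**Figure D5:**
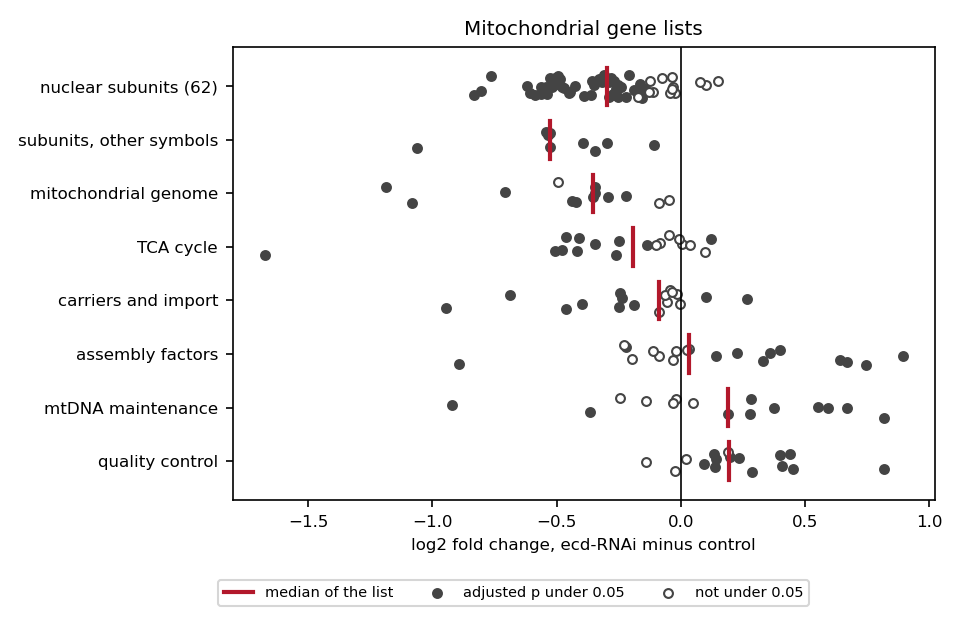
Each point is a gene, placed by its log2 fold change (ecd-RNAi-labelled minus control libraries); rows are lists of mitochondrial genes, red lines mark list medians, and filled points passed a limma adjusted p of 0.05. Subunits (median -0.30), subunits under other symbols (-0.53) and the mitochondrial genome (-0.35) lie to the left, and quality control and mitochondrial DNA maintenance (0.19 each) to the right.

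The counts of markers of other cells of the disc stand beside 31.7% lower and 30.8% higher over all rows tested. Muscle precursor and muscle markers had 8 of 20 (40%) lower and 4 (20%) higher (zfh1 -1.70 and Mlc2 2.31 at the ends), with summed levels of 87150 to 95130 normalized counts in the ecd-RNAi-labelled libraries and 93840 to 104900 in control libraries. Tracheal markers had 5 of 10 (50%) lower and 3 (30%) higher (pio -1.05, ect 1.95), with sums of 17600 to 19710 in the ecd-RNAi-labelled libraries and 23490 to 24610 in control libraries. Hemocyte markers had 3 of 13 (23.1%) lower and 5 (38.5%) higher (PPO1 -1.88, ItgaPS4 2.18; sums 4066 to 7181 in ecd-RNAi-labelled and 3977 to 4806 in control libraries). Fat body markers had 1 of 9 (11.1%) lower and none higher (Fbp1 -1.52; sums 1777 to 7571 in ecd-RNAi-labelled and 2340 to 9813 in control libraries), and neuronal markers 5 of 10 (50%) lower and 1 (10%) higher (sens -2.79, ase -1.89; sums 1194 to 1363 in ecd-RNAi-labelled and 1536 to 1675 in control libraries). None of these markers was at 0 in all libraries, and their part in the fall of the respiratory chain was not tested.

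The authors' deposited table puts each of the 62 subunits on the same side of an adjusted p of 0.05, and 23.4% of its 12213 rows with an adjusted p are lower. In the authors' deposited table COX8 has a log2 fold change of -0.81 ± 0.059 and ATPsynF one of -0.83 ± 0.066 (standard errors of that table). The authors' deposited table gives COX7AL 5.37 ± 0.78, with an adjusted p of 5.14e-11, and ATPsynepsilonL an adjusted p of 0.0679.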

How the data were processed

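Per the labels, total RNA of wing discs was sequenced from 4 control and 4 ecd-RNAi pools of discs; one label names single-end and another paired-end reads. Per the submitters' processing notes, FastQC, cutadapt 3.5, kallisto 0.46.1, DESeq2 1.34.0 and BDGP6 were used, with settings not given in the sources used here. Normalized counts were deposited, a signal per row that is not whole (23932 rows, 18354 of them genes). They also deposited a table of log2 fold changes, p-values and a test score for each row, per the file headers. Low values lay near steps worth 1 read, but whole reads were not recovered, so no count model was run; the steps put the depth at about 31100000 to 37500000 reads in ecd-RNAi-labelled and 29500000 to 36500000 in control libraries.

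From these values, limma 3.58.1 (R 4.3.3; lmFit, eBayes with trend, two-sided, no covariates) was fitted to log2(normalized count + 1) for the 9380 gene rows averaging 10 or more, with Benjamini-Hochberg adjustment over all of them; fold changes are on that scale and understate low genes. N-fold values are ratios of group means. The script was tested on simulated data. Lengths, introns and overlaps are from the Ensembl annotation of BDGP6. Alternatives were other pseudocounts, filters and scalings, a replicate block, each library left out, the authors' table and a length correction added after the data were seen (robust lowess, span 0.2). Members and lists were chosen with earlier results of these data known. Genes named were, per complex, the 4 lowest and 2 highest fold changes, the core subunits, paralogs with a mean of at least 1, the mitochondrial genome, members called higher and 2 per other list; further ones were chosen after their values were seen. Promoter motifs and sequences were not analysed here. One gene is not reported here.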

Additional observations from a re-analysis of the deposited data

Results flagged for a closer look

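In 8 of 132 groups of 4 libraries, 1 library stood apart from the other 3 by Dixon's criterion at 95%, and chance gives about 1 in 20. ND-B14 measured 381.6 in control replicate 2, against 458.2 to 467.5 in the other control libraries. ND-MNLL measured 360.4 in control replicate 3, against 410.0 to 420.0 in the others. ND-PDSW measured 1021 in ecd-RNAi replicate 1, against 881.5 to 901.6 in the other ecd-RNAi-labelled libraries. SdhB was high in the same library, at 897.9 against 782.3 to 799.2. UQCR-Q measured 510.4 in ecd-RNAi replicate 2, against 494.6 to 496.4. COX5B measured 1444 in control replicate 1, against 1464 to 1468. Control replicate 4 was highest for ATPsynG, at 2220 against 2063 to 2087, and for ATPsynbeta, at 17820 against 16480 to 16590. All values are normalized counts. COX7AL2 (46.2 in control replicate 1) was not among the groups examined, since it was below the filter.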

How the results depend on the processing

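Over the settings in which each was tested, 42 of the 66 members kept the same direction and side of the threshold; the filter of 50 left out the 3 L paralogs. Of the 62 subunits, 47 to 51 were lower and 0 to 1 higher with any one library left out; the one higher was ND-B14.7, without ecd-RNAi replicate 4 or control replicate 4. For complex I, 0 to 1 were then higher. The leave-one-out median of complex II ranged from -0.26 to -0.20. The L paralogs had 0 to 1 lower. Calls lost in this way were those of ND-13A (adjusted p = 0.0521 to 0.067, without ecd-RNAi replicate 1 or 3 or control replicate 1 or 4), ND-24, ND-B16.6 (0.0501 without ecd-RNAi replicate 4) and ATPsynepsilonL.

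Scaling moved the sizes more than the calls. Quantile normalization gave 2 higher subunits (1 in complex I, 1 in complex II) and a complex V median of -0.25; the protein-coding total gave 2, both in complex I. Recentring on the median gene, a shift of -0.09, gave medians of -0.39 over all subunits and -0.34, -0.31, -0.54, -0.62 and -0.45 for complexes I to V. The length correction gave 1 higher subunit, in complex I, and medians of -0.21 over all subunits, -0.16 in complex I, -0.22 in complex III and -0.43 in complex IV. No L paralog was lower without the filter, with a filter of 50, with the length correction or in the authors' deposited table; 5 were higher without the filter and 0 with a filter of 50, which COX7AL does not reach.

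Signs turned for ND-51 with recentring (-0.015), for ND-75 with quantile normalization (0.072), the protein-coding total (0.0087) and without ecd-RNAi replicate 4 (leave-one-out range -0.053 to 0.012), for ND-B18 with the protein-coding total (0.0006) and without control replicate 4 (-0.058 to 0.021), for ND-MNLL (0.017), Sdhaf3 (0.13) and COX7CL (0.11) with the length correction, for ND-PDSW without control replicate 1 (-0.084 to 0.0019) and with the length correction (0.065), and for SdhA with quantile normalization (0.092, adjusted p = 0.0308, as higher). The cause was not tested.

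Same-numbered replicates did not deviate together (correlations 0.053, -0.052, -0.040 and -0.017), so the numbers do not pair the libraries. With the replicate number as a block, 49 subunits were lower and 0 higher, with a median of -0.30, and no call of a member changed. Depth limits the paralogs, most of which averaged below the worth of 3 reads.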
